A study of Danio rerio with 18 samples.

Results

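The genes described here encode the enzymes that the exocrine pancreas secretes into the gut and the hydrolases, transporters and binding proteins with which intestinal cells finish digestion and take up the products. They were chosen by name, as a list of 59 symbols, with earlier results of these data known. In all, 46 of them had a row among the 28870 gene names of the counts table. Of these, 18 of the 27 pancreatic names and 28 of the 32 intestinal names had a row. The names with no row were prss1, cela1.1, cela1.2, cela1.3, cela1.4, cela1.5, cela1.6, clps and gp2 from the pancreas and mttp, meprin1a, chia.5 and vill from the intestine. RefSeq (assembly GRCz12tu, used here for symbols and neighbouring genes alone) lists try as an older symbol of prss1, so the trypsin row stands for both names.

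RNA was sequenced from whole zebrafish (Danio rerio) with the stl297 allele of scospondin, which the series calls hypomorphic, so that gene function is lowered and not abolished. Scospondin builds most of the Reissner fibre, which is stretched through brain and spinal canal. MZ fish, short for maternal zygotic mutant, were mutant themselves and came from mutant mothers, and were sampled at 5, 15 and 30 days post fertilisation (dpf). Het fish of the same 3 ages carried the same allele on 1 chromosome, so no group was free of it. Each of the 6 groups had 3 libraries. The labels state neither how many fish made a library nor the clutch, so a p-value measures the spread between libraries, which may be technical. In the headers of the table the MZ columns read homoz and the het columns read ox, which leaves it unclear whether both genotypes come from the same crosses, and parents, clutch and rearing cannot be told apart from the allele.

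In zebrafish, acinar cells of the pancreas make inactive precursors of proteases, lipases and amylase, and begin to do so before the larva first feeds. Enterocytes carry peptidases, disaccharidases and phosphatases on a brush border, absorb peptides, glucose, bile acids and lipids through dedicated carriers, and differ in these along the length of the gut. A posterior group of enterocytes takes up whole protein through the receptor pair cubilin and amnionless. In RNA from a whole fish, fewer cells of a type and less RNA per cell cannot be told apart.

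Total counts per library lay between 10178388 and 17141819, and pairs of libraries of the same group differed by more than counting noise, with a chi-square per degree of freedom of 4.73 to 16.9. The scospondin gene itself had 1 to 16 counts per library, too few to check the genotype labels. Values are normalised read counts in CPM, read counts brought to the same library total and balanced by TMM factors, and a gene is called changed at an edgeR adjusted p under 0.05 over all genes tested. Fold changes are log2, MZ over het unless ages are named. Groups do not overlap where every library of 1 genotype lies above every library of the other. How many of all genes meet this was not counted, so it adds no support to a difference without a call. Every member except chia.4 passed the filter on low counts at every age. The chitinase gene chia.4 had 1 to 19 counts per library at 5 and 15 dpf. Between genotypes it was tested at 30 dpf alone, so 45 members were tested at the earlier ages and 46 at 30 dpf. Its 30 dpf libraries also brought it into the tests of 30 over 15 dpf and those over all 18 libraries.

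Digestion genes made up a visible part of the RNA of a whole fish. The 18 pancreatic members held from 1.69% to 6.19% of the counts of a library, and the 28 intestinal members from 0.371% to 1.41%. At 5 dpf the pancreatic members summed to 26561, 26130.2 and 30855 CPM in the MZ libraries, against 16364, 17478 and 23933 CPM in the het libraries. At 15 dpf the sum was 47406, 55505 and 64759 CPM in the MZ libraries, against 40910.1, 51997 and 54576 CPM in the het libraries. At 30 dpf it was 38979, 43432 and 32971 CPM in the MZ libraries, against 51482, 62757 and 46134 CPM in the het libraries. MZ libraries were thus all above het libraries at 5 dpf, overlapped with them at 15 dpf, and were all below them at 30 dpf, with ratios of the group means of 1.45, 1.14 and 0.720. The intestinal sum at 5 dpf was 5992, 6466 and 6598 CPM in the MZ libraries, against 3977, 5854 and 3349 CPM in the het libraries. At 15 dpf it was 10733, 15556 and 16772 CPM in the MZ libraries, against 12080.5, 10656 and 9804 CPM in the het libraries. At 30 dpf it was 12761, 8599 and 11228 CPM in the MZ libraries, against 9719, 12297 and 10023 CPM in the het libraries. The intestinal sum of every MZ library was above every het library at 5 dpf, and the groups overlapped at 15 and 30 dpf, with ratios of 1.45, 1.32 and 1.02. At 5 dpf this separation rested on the chitinase gene chia.2: without it, a sum taken after its values were seen, the other 27 members had 3831, 4175 and 4181 CPM in the MZ libraries, against 3268, 4685 and 2747 CPM in the het libraries, so the groups overlapped, with a ratio of 1.14. The libraries did not keep one order across the 2 organs: among het libraries at 5 dpf, library 3 had the highest pancreatic and the lowest intestinal sum, and among MZ libraries at 30 dpf, library 2 had the highest pancreatic and the lowest intestinal sum.

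**Figure D1:**
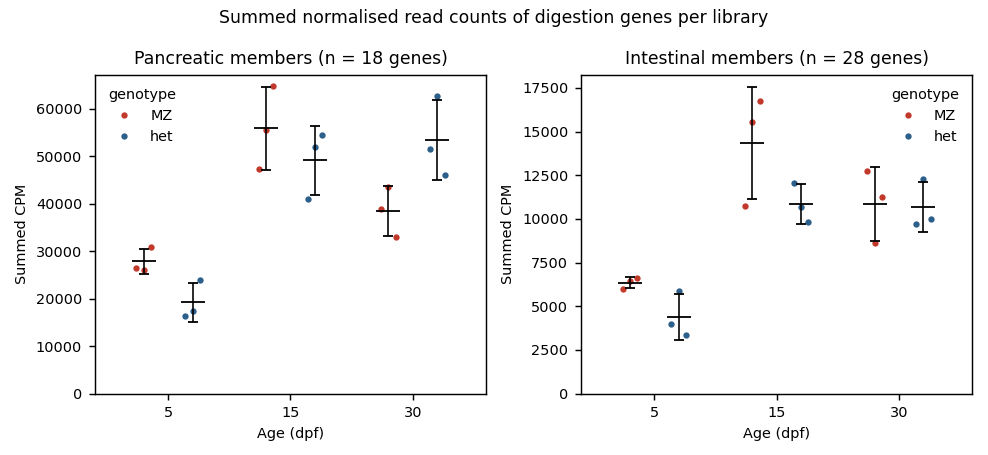
Summed CPM of the 18 pancreatic members (left) and the 28 intestinal members (right) in each library by age in dpf, MZ left of het, with the mean as a dash and the SD of 3 libraries as a bar. Pancreatic sums of MZ fish lay above those of het fish at 5 dpf and below them at 30 dpf.

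The comparison of MZ with het fish asks which digestion genes differ with genotype, and at which age. At 5 dpf, 29 of 45 tested members were called, with 24 higher in MZ fish and 5 lower, where 40.7% of all 19779 tested genes were called, 21.1% higher and 19.6% lower. As shares of the members these are 64.4% called, 53.3% higher and 11.1% lower, so the excess over all genes lay in the upward direction. Because members were chosen with earlier results of these data known, this excess is no test of the list. Among pancreatic members 13 of 18 were higher and 0 were lower, and 14 of the 18 had an unadjusted p under 0.05, as did 48.9% of all genes. Among intestinal members 11 of 27 were higher and 5 were lower. The median log2 fold change was 0.55 over pancreatic members and 0.37 over intestinal members, against -0.003 over all genes. The intestinal median was 0.63 without het library 2 and 0.18 without het library 3. With 1 fit over all 18 libraries, 21 members were called, 17 higher and 4 lower, and the split of all called genes moved to 3248 higher and 4517 lower, against 4172 higher and 3871 lower in the fit of the 5 dpf libraries.

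At 15 dpf, 1 of 45 members was called, the amylase gene amy2a, where 0.891% of all 19307 tested genes were called. In all, 13 members had an unadjusted p under 0.05, as did 18.9% of all genes, and DESeq2 called 7 members, all of them higher in MZ fish, and 5.09% of all genes. Without MZ library 1, 11 members were called, as were 922 of all 19627 genes. Without MZ library 3, het library 1 or het library 2, 0 members were called. Over all genes these fits called 3, 2 and 2. At 30 dpf, 0 of 46 members were called by edgeR, where 3.30% of all 19980 tested genes were called. At that age 16 members had an unadjusted p under 0.05, 13 of them pancreatic, as did 22.3% of all genes. DESeq2 called 7 members lower in MZ fish, cel.1, cpa5, ctrb1, ela2, ela2l, ela3l and lct, and 6.39% of all genes. All 18 pancreatic members had a log2 fold change below 0 at 30 dpf, with a median of -0.40, and 12 of the 28 intestinal members were above 0, with a median of -0.05, which was 0.06 without MZ library 2. The median over all genes was 0.005 at this age. At 5 dpf, by contrast, 17 of the 18 pancreatic members had been above 0, and the test of the difference between these ages is given further on.

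**Figure D2:**
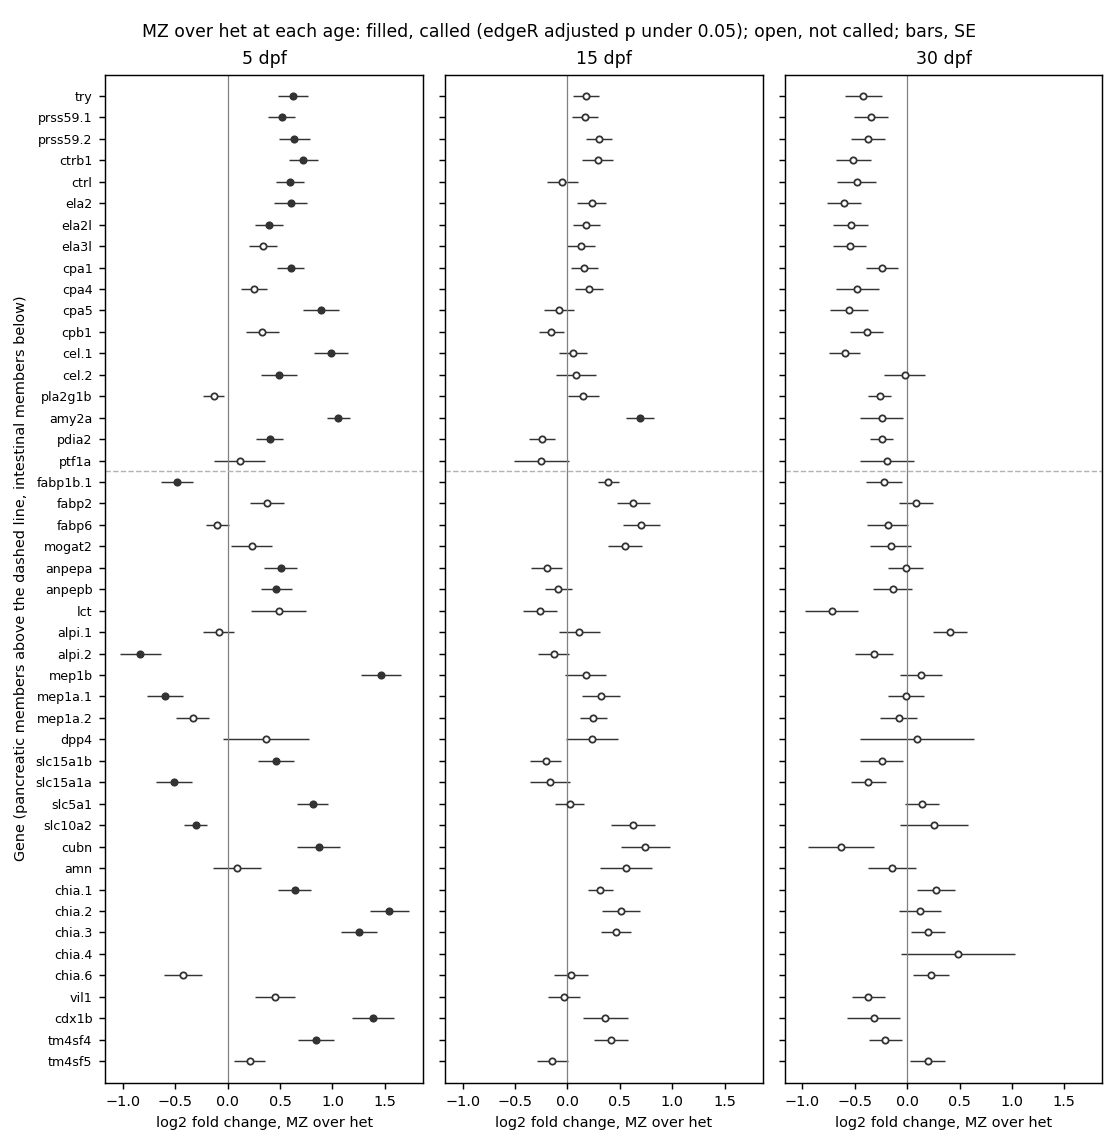
Log2 fold change of MZ over het for every tested member at 5, 15 and 30 dpf (horizontal axis, the same range in each panel), with pancreatic members above the dashed line and intestinal members below it. Filled points were called and bars are the SE; 29 members were called at 5 dpf, 1 at 15 dpf and 0 at 30 dpf.

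Trypsins, which cut after basic residues and activate the other pancreatic precursors, include the 2 members with the highest mean CPM per kb of gene length in each of the 6 groups, prss59.2 and try. The trypsin gene try had 4496, 4584 and 5359 CPM in the MZ libraries, against 2759.7, 3042 and 4026 CPM in the het libraries at 5 dpf. At 15 dpf it had 8096, 8857 and 10871 CPM in the MZ libraries, against 6879, 8527 and 8993 CPM in the het libraries. At 30 dpf it had 6971, 7544 and 5602 CPM in the MZ libraries, against 8289.5, 11007 and 8030.2 CPM in the het libraries. The groups did not overlap at 5 dpf, with MZ fish higher (log2 fold change 0.62, SE 0.14, edgeR adjusted p = 0.00309), overlapped at 15 dpf, and did not overlap at 30 dpf, where MZ fish were lower without a call (log2 fold change -0.42, edgeR adjusted p = 0.205). Per length, prss59.2, a trypsin-like protease gene, reached a mean of 5057 CPM per kb in MZ fish and 3411 CPM per kb in het fish at 5 dpf, against 4448 and 3028 CPM per kb for try in MZ and het fish. In CPM, prss59.2 had 4289, 4089 and 4958 CPM in the MZ libraries, against 2634, 2631 and 3729.6 CPM in the het libraries at 5 dpf, 7956, 9589 and 10744 CPM in the MZ libraries, against 6440.0, 7910.3 and 8402 CPM in the het libraries at 15 dpf and 6294, 6591 and 5382 CPM in the MZ libraries, against 7306, 9526 and 7201 CPM in the het libraries at 30 dpf. It followed try in each respect, higher in MZ fish at 5 dpf (log2 fold change 0.64, SE 0.14, edgeR adjusted p = 0.00291) and without a call later. Its neighbour prss59.1 was also higher at 5 dpf, with a log2 fold change of 0.51 (SE 0.13), although this call was lost without het library 1. The pair are neighbours in RefSeq, and how the authors' counting divided reads between such copies is not given in the sources used here, so the split between them is uncertain.

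Chymotrypsins and elastases cut after large hydrophobic and small residues. Among the 5 genes measured, 4 were higher in MZ fish at 5 dpf. The chymotrypsin gene ctrb1 had 3324, 3218 and 3774 CPM in the MZ libraries, against 1844, 2037 and 2683 CPM in the het libraries at 5 dpf. It had 5440.3, 6782 and 8382 CPM in the MZ libraries, against 4652, 5899.6 and 6169 CPM in the het libraries at 15 dpf and 3890.3, 4545 and 3485 CPM in the MZ libraries, against 5231, 6957 and 5115 CPM in the het libraries at 30 dpf. MZ libraries were all above het libraries at 5 dpf (log2 fold change 0.72, SE 0.14, edgeR adjusted p = 9.43e-04) and all below them at 30 dpf, where the log2 fold change of -0.51 was not called (edgeR adjusted p = 0.114). The elastase gene ela2 had 2958, 2770.1 and 3529 CPM in the MZ libraries, against 1781, 1872 and 2736 CPM in the het libraries at 5 dpf. At 15 dpf the values were 4702, 5723 and 6390.0 CPM in the MZ libraries, against 3778, 5039 and 5383 CPM in the het libraries, and at 30 dpf they were 3204, 3539.7 and 2810.3 CPM in the MZ libraries, against 5111, 5618 and 4015 CPM in the het libraries. Its groups did not overlap at 5 dpf or at 30 dpf, and overlapped at 15 dpf. The 5 dpf difference of 0.60 was called (edgeR adjusted p = 0.00675) but not without het library 1, and the 30 dpf difference of -0.60 was not (adjusted p = 0.0707). The chymotrypsin-like gene ctrl and the elastase gene ela2l were called at 5 dpf as well, at 0.59 and 0.40, and the elastase gene ela3l was not, at 0.34 (edgeR adjusted p = 0.0534). The groups of ela2l overlapped at 5 dpf, and its call was lost without MZ library 3, het library 1 or het library 2 and with 1 fit over all libraries. At 30 dpf all 5 lay between -0.60 and -0.48 with an unadjusted p under 0.05 each, and the calls of DESeq2 at that age included 4 of them. The genes ela2 and ela2l are neighbours too.

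Carboxypeptidases trim amino acids from the end of a chain, cpa genes the hydrophobic ones and cpb1 the basic ones. The highest of them, cpa5, had 2737, 2782 and 3025 CPM in the MZ libraries, against 1296, 1338 and 2199 CPM in the het libraries at 5 dpf. It had 3255, 4089 and 4864 CPM in the MZ libraries, against 3572, 4448 and 4767 CPM in the het libraries at 15 dpf. It had 2725, 3214 and 2083 CPM in the MZ libraries, against 3859.9, 4666 and 3463 CPM in the het libraries at 30 dpf. MZ fish were higher at 5 dpf (log2 fold change 0.89, SE 0.17, edgeR adjusted p = 8.73e-04), and the difference was -0.08 at 15 dpf and -0.56 at 30 dpf, neither of them called, although the groups did not overlap at 30 dpf. The gene cpb1 had 863, 990.2 and 1089.9 CPM in the MZ libraries, against 679, 709 and 1064 CPM in the het libraries at 5 dpf, with overlapping groups and no call at any age, and its group means were 2070.3 ± 296 CPM in MZ fish and 2285 ± 227 CPM in het fish at 15 dpf and 1959.5 ± 274 CPM in MZ fish and 2607 ± 409.6 CPM in het fish at 30 dpf (SD, n = 3 each). Levels of cpa1 were low at 5 dpf, with 79.9, 90.1 and 90.1 CPM in the MZ libraries, against 56.3, 50.7 and 72.2 CPM in the het libraries, and MZ fish were higher (log2 fold change 0.60, edgeR adjusted p = 0.00173). The gene lies beside cpa5. The member cpa4 was not called at any age, with differences of 0.25, 0.21 and -0.47 at 5, 15 and 30 dpf.

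Among the enzymes for fat and starch, the amylase gene amy2a differed with the smallest adjusted p of all members at 5 dpf. It had 279.7, 289.5 and 310.0 CPM in the MZ libraries, against 135, 140.4 and 168 CPM in the het libraries at 5 dpf. At 15 dpf it had 441, 555 and 639 CPM in the MZ libraries, against 290.4, 332 and 379 CPM in the het libraries. At 30 dpf it had 171, 318 and 214 CPM in the MZ libraries, against 278, 329 and 239.6 CPM in the het libraries. MZ libraries were above all het libraries at 5 dpf (log2 fold change 1.06, SE 0.11, edgeR adjusted p = 5.35e-06) and at 15 dpf (log2 fold change 0.70, SE 0.13, edgeR adjusted p = 0.0407), and the groups overlapped at 30 dpf. The 15 dpf call was lost without MZ library 2, MZ library 3, het library 1 or het library 2, and the log2 fold change then ran no lower than 0.57. Over all genes these fits called 91, 3, 2 and 2, against 172 with all libraries of that age. Amylase also took a larger part of the pancreatic sum in MZ fish at 5 dpf, 1.06% ± 0.0516 against 0.777% ± 0.0667 in het fish, and at 15 dpf, 0.972% ± 0.0361 against 0.681% ± 0.0373 (SD, n = 3 each).

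The bile salt-activated lipase gene cel.1 had 307, 301 and 352 CPM in the MZ libraries, against 141, 139 and 228 CPM in the het libraries at 5 dpf. It had 709, 817 and 953 CPM in the MZ libraries, against 645, 880.4 and 844 CPM in the het libraries at 15 dpf and 772, 936 and 775 CPM in the MZ libraries, against 1399, 1403 and 1010.5 CPM in the het libraries at 30 dpf. It was higher in MZ fish at 5 dpf without overlap (log2 fold change 0.98, SE 0.16, edgeR adjusted p = 2.77e-04), and at 30 dpf it was the member nearest to a call among those below 0 (log2 fold change -0.59, edgeR adjusted p = 0.0621, again without overlap). Its neighbour cel.2 had 248, 280.5 and 324 CPM in the MZ libraries, against 164, 182 and 289 CPM in the het libraries at 5 dpf. Its means were 285 ± 80.0 CPM in MZ fish and 268 ± 64.6 CPM in het fish at 15 dpf and 402 ± 71.9 CPM in MZ fish and 415 ± 107 CPM in het fish at 30 dpf (SD, n = 3 each). The groups of cel.2 overlapped at every age, and its call at 5 dpf (log2 fold change 0.49, edgeR adjusted p = 0.0342) was lost in 4 of the 6 fits that left out a library and in DESeq2. The phospholipase gene pla2g1b was the only pancreatic member below 0 at 5 dpf, at -0.13 (SE 0.10) without a call, and had 70.0, 73.8 and 73.8 CPM in the MZ libraries, against 75.2, 89.0 and 86.8 CPM in the het libraries. Its part of the pancreatic sum at 5 dpf was 0.262% ± 0.0216 in MZ fish, against 0.444% ± 0.0745 in het fish (SD, n = 3 each).

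The remaining pancreatic members are no secreted enzymes. The gene pdia2, a disulfide isomerase of acinar cells that helps secreted proteins fold, had 186, 172 and 178 CPM in the MZ libraries, against 133, 119.6 and 173 CPM in the het libraries at 5 dpf and was called higher (log2 fold change 0.40, edgeR adjusted p = 0.0193), a call lost without MZ library 3, het library 1 or het library 2. At the later ages it averaged 132 ± 17.8 CPM in MZ fish and 154 ± 23.2 CPM in het fish at 15 dpf and 104 ± 11.6 CPM in MZ fish and 126 ± 9.59 CPM in het fish at 30 dpf (SD, n = 3 each). The transcription factor gene ptf1a, needed to form acinar cells, was rare and had 3.74, 4.62 and 2.98 CPM in the MZ libraries, against 2.79, 3.94 and 4.23 CPM in the het libraries at 5 dpf. It had 3.39, 3.22 and 5.54 CPM in the MZ libraries, against 3.69, 5.34 and 5.39 CPM in the het libraries at 15 dpf and 2.45, 3.33 and 3.39 CPM in the MZ libraries, against 3.46, 4.50 and 2.75 CPM in the het libraries at 30 dpf. Its groups overlapped at every age and its difference at 5 dpf was 0.11 (SE 0.24), without a call. With 40 to 71 counts per library at 5 dpf, a difference like that of the enzymes could have been missed. The regulator and the enzymes therefore cannot be contrasted here.

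**Figure D3:**
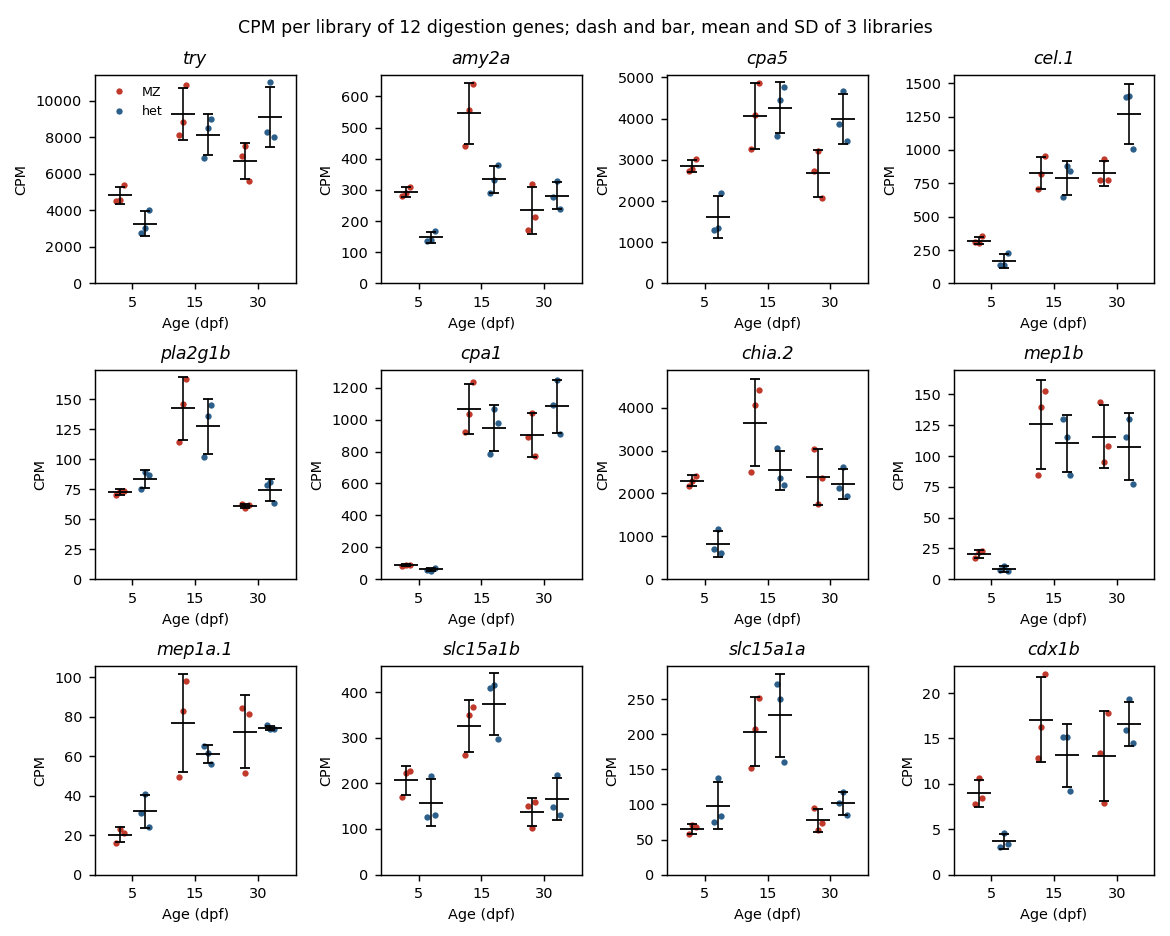
CPM of 12 digestion genes in each library by age in dpf, MZ left of het, with the mean as a dash and the SD of 3 libraries as a bar; each panel has its own vertical axis from 0. At 5 dpf MZ libraries lay above het libraries for try, amy2a, cpa5, cel.1, cpa1, chia.2, mep1b and cdx1b, and below them for pla2g1b, mep1a.1 and slc15a1a. Of these, pla2g1b was not called. The 12 genes were picked without a rule and do not stand for all members. Groups overlapped at 5 dpf for many members not shown, among them fabp2, fabp6, ptf1a and anpepb. How many of all genes separate in this way was not counted.

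Intestinal members moved in both directions at 5 dpf. Chitinases break the chitin of crustacean and insect food. The most abundant of their genes, chia.2, had the largest log2 fold change of all members at that age, with 2161, 2291 and 2417 CPM in the MZ libraries, against 709, 1169 and 602 CPM in the het libraries at 5 dpf. It had 2488, 4054 and 4409 CPM in the MZ libraries, against 3061, 2351 and 2207 CPM in the het libraries at 15 dpf. It had 3037, 1750.4 and 2362 CPM in the MZ libraries, against 2119, 2612 and 1944 CPM in the het libraries at 30 dpf. MZ libraries lay above het libraries at 5 dpf (log2 fold change 1.54, SE 0.18, edgeR adjusted p = 1.76e-05), and the groups overlapped at 15 and 30 dpf. The part of the intestinal sum held by chia.2 at 5 dpf was 36.0% ± 0.599 in MZ fish, against 18.6% ± 1.19 in het fish, and at 30 dpf 21.7% ± 1.82 in MZ fish, against 20.8% ± 1.26 in het fish (SD, n = 3 each). Its neighbour chia.1 had 266, 289 and 312 CPM in the MZ libraries, against 184, 258 and 145 CPM in the het libraries at 5 dpf, and was higher in MZ fish without overlap (log2 fold change 0.64, edgeR adjusted p = 0.00434). At 15 and 30 dpf chia.1 averaged 1839 ± 299 CPM in MZ fish and 1466 ± 133 CPM in het fish, and 1972 ± 429.9 CPM in MZ fish and 1662 ± 249.5 CPM in het fish, in that order of age (SD, n = 3 each). The third gene of that cluster, chia.3, had 23.6, 27.5 and 27.1 CPM in the MZ libraries, against 9.21, 16.3 and 9.6 CPM in the het libraries at 5 dpf and was also higher in MZ fish (log2 fold change 1.25, SE 0.18, edgeR adjusted p = 7.63e-05). The members chia.4 and chia.6 lie in another cluster. There chia.6 was below 0 at 5 dpf, at -0.42 (SE 0.18), without overlap of the groups and without a call (edgeR adjusted p = 0.0763). The estimates of the chitinase genes thus lay on both sides of 0, although the lower one was not called.

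Brush border hydrolases split into 3 higher, 2 lower and 4 not called at 5 dpf, which is 33.3% higher and 22.2% lower, near the 21.1% and 19.6% of all genes. Meprin B, a membrane protease, is encoded by mep1b, which had 16.7, 22.1 and 22.8 CPM in the MZ libraries, against 6.94, 10.8 and 6.13 CPM in the het libraries at 5 dpf and was higher in MZ fish (log2 fold change 1.46, SE 0.19, edgeR adjusted p = 4.06e-05). Meprin A, the partner subunit in mammals, has 2 genes here, which are neighbours. The first, mep1a.1, had 16.0, 23.3 and 21.1 CPM in the MZ libraries, against 31.4, 40.8 and 24.0 CPM in the het libraries at 5 dpf and was lower in MZ fish (log2 fold change -0.60, SE 0.17, edgeR adjusted p = 0.0124), a call lost without MZ library 1 or het library 2. The second, mep1a.2, had 32.7, 45.9 and 45.7 CPM in the MZ libraries, against 49.8, 70.1 and 45.0 CPM in the het libraries at 5 dpf and was not called (log2 fold change -0.33, edgeR adjusted p = 0.106). The mep1b groups did not overlap and had MZ fish above, the mep1a.1 groups did not overlap and had MZ fish below, and the mep1a.2 groups overlapped. Later means of mep1a.2 were 131 ± 22.3 CPM in MZ fish and 109.7 ± 11.9 CPM in het fish at 15 dpf and 93.7 ± 19.6 CPM in MZ fish and 101 ± 18.4 CPM in het fish at 30 dpf (SD, n = 3 each).

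Aminopeptidase N, which frees amino acids from the start of a peptide, is encoded by anpepb, with 201, 293 and 269.6 CPM in the MZ libraries, against 189.7, 235 and 158 CPM in the het libraries at 5 dpf. At 15 dpf anpepb had 520.3, 743 and 708 CPM in the MZ libraries, against 766, 683 and 629 CPM in the het libraries, and at 30 dpf 476, 274 and 437 CPM in the MZ libraries, against 484, 439 and 407 CPM in the het libraries. Its groups overlapped at every age, and the 5 dpf call (log2 fold change 0.47, edgeR adjusted p = 0.0201) was lost in 4 of the 6 fits that left out a library. Its paralogue anpepa was called at 0.50 and lost that call in 3 of the 6. Intestinal alkaline phosphatase has a pair of neighbouring genes. The gene alpi.2 had 12.2, 19.4 and 18.3 CPM in the MZ libraries, against 29.3, 41.8 and 22.6 CPM in the het libraries at 5 dpf and was lower in MZ fish (log2 fold change -0.83, SE 0.20, edgeR adjusted p = 0.00397), a call kept in all 6 fits that left out a library. The gene alpi.1 had a log2 fold change of -0.09 (SE 0.15) at that age, without a call. Lactase, encoded by lct, and dpp4, a dipeptidyl peptidase gene, were not called at any age, with differences at 5 dpf of 0.49 (SE 0.26) for lct and 0.37 (SE 0.41) for dpp4. At 30 dpf the highest MZ library of lct had 45.1 CPM, below the lowest het library with 49.9 CPM.

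Transporter genes also lay on both sides of 0 at 5 dpf. The gene slc5a1, for the sodium-glucose carrier of the brush border, had 82.4, 93.7 and 107 CPM in the MZ libraries, against 51.4, 72.8 and 45.8 CPM in the het libraries at 5 dpf. It had 266, 356 and 397 CPM in the MZ libraries, against 376, 333 and 285 CPM in the het libraries at 15 dpf and 519, 332 and 433 CPM in the MZ libraries, against 379, 447 and 356 CPM in the het libraries at 30 dpf. It was higher in MZ fish at 5 dpf without overlap (log2 fold change 0.81, SE 0.15, edgeR adjusted p = 5.58e-04) and not called later. The peptide carrier PepT1, which takes up short peptides, is encoded by slc15a1a and slc15a1b. The first, slc15a1a, had 57.5, 71.0 and 68.0 CPM in the MZ libraries, against 75.1, 137 and 82.9 CPM in the het libraries at 5 dpf and was lower in MZ fish (log2 fold change -0.51, SE 0.17, edgeR adjusted p = 0.0286). This call was lost without MZ library 1, MZ library 3 or het library 2 and in DESeq2, and without het library 2, the highest, the log2 fold change was -0.21. The other, slc15a1b, had 169.7, 222 and 227 CPM in the MZ libraries, against 127, 216 and 129.8 CPM in the het libraries at 5 dpf. At 15 dpf slc15a1b had 261, 351 and 368 CPM in the MZ libraries, against 409, 417 and 297 CPM in the het libraries, and at 30 dpf 150.1, 103 and 159.6 CPM in the MZ libraries, against 149, 218 and 131 CPM in the het libraries. Its groups overlapped at every age, and the call at 5 dpf (log2 fold change 0.46, edgeR adjusted p = 0.0421) was lost in 4 of the 6 fits that left out a library and in DESeq2. The genes of this pair thus lay on opposite sides of 0 at 5 dpf, and kept those sides in all 6 fits that left out a library, although the calls did not hold in all of them.

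The bile acid carrier gene slc10a2 had 29.9, 28.0 and 29.3 CPM in the MZ libraries, against 33.7, 42.5 and 37.3 CPM in the het libraries at 5 dpf, lower in MZ fish without overlap (log2 fold change -0.30, edgeR adjusted p = 0.0378). That call was lost in 5 of the 6 fits that left out a library. At 15 dpf the MZ libraries of slc10a2, with 56.8, 57.5 and 66.2 CPM, were all above the het libraries, with 51.3, 41.6 and 23.3 CPM, without a call (adjusted p = 0.14 in edgeR). Cubilin, the receptor for whole protein, is encoded by cubn, which had 11.9, 13.2 and 13.5 CPM in the MZ libraries, against 5.19, 10.6 and 6.88 CPM in the het libraries at 5 dpf and was higher in MZ fish (log2 fold change 0.87, edgeR adjusted p = 0.00348). Its partner amn was not called, at 0.09 (SE 0.23) at 5 dpf.

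Among the genes for lipid binding and synthesis, fabp1b.1 alone was called at 5 dpf. The fatty acid binding gene fabp2 had 1658, 1663 and 1663 CPM in the MZ libraries, against 1276, 1812 and 966 CPM in the het libraries at 5 dpf. It had 2507, 3925 and 4404 CPM in the MZ libraries, against 2431, 2179.5 and 2326 CPM in the het libraries at 15 dpf. It had 2628, 2113 and 2375 CPM in the MZ libraries, against 1776, 2636 and 2418 CPM in the het libraries at 30 dpf. Groups overlapped at 5 and 30 dpf, and at 15 dpf every MZ library was above every het library without a call (log2 fold change 0.63, edgeR adjusted p = 0.0693). A related gene, fabp1b.1, had 351, 320.1 and 294 CPM in the MZ libraries, against 442, 625 and 355 CPM in the het libraries at 5 dpf, where MZ fish were lower (log2 fold change -0.48, SE 0.15, edgeR adjusted p = 0.0211). It had 798, 958 and 1019 CPM in the MZ libraries, against 702, 694 and 703 CPM in the het libraries at 15 dpf and 580.4, 505 and 668 CPM in the MZ libraries, against 525, 822 and 735 CPM in the het libraries at 30 dpf. The 5 dpf call was lost without MZ library 3 or het library 2, the highest het library, and at 15 dpf the MZ libraries stood above the het libraries with a difference of 0.39 that was not called (edgeR adjusted p = 0.0755). The bile acid binding gene fabp6, of the posterior gut, had 318, 368 and 348 CPM in the MZ libraries, against 373, 446 and 344 CPM in the het libraries at 5 dpf. It had 531, 487 and 760.4 CPM in the MZ libraries, against 418, 393 and 271 CPM in the het libraries at 15 dpf and 473, 268 and 417 CPM in the MZ libraries, against 443, 507 and 391 CPM in the het libraries at 30 dpf. Its groups overlapped at 5 and 30 dpf, and at 15 dpf MZ libraries were all above het libraries (log2 fold change 0.71, edgeR adjusted p = 0.0695, not called). With mogat2, which rebuilds triglyceride from absorbed monoglyceride, all 4 measured lipid binding and synthesis genes lay between 0.39 and 0.71 at 15 dpf. Each had an unadjusted p under 0.05, as did 18.9% of all genes. DESeq2 called all 4 at that age, together with amy2a, chia.3 and cubn, and 5.09% of all genes. Without MZ library 1, edgeR called the 4 and 922 of all 19627 genes, against 172 of 19307 with all libraries.

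Regulator and membrane genes of the gut lay above 0 at 5 dpf. The transcription factor gene cdx1b, needed for intestinal differentiation in zebrafish, had 7.79, 10.6 and 8.48 CPM in the MZ libraries, against 3.05, 4.53 and 3.35 CPM in the het libraries at 5 dpf. It had 12.9, 16.3 and 22.1 CPM in the MZ libraries, against 15.2, 15.2 and 9.15 CPM in the het libraries at 15 dpf and 13.4, 7.88 and 17.8 CPM in the MZ libraries, against 15.9, 19.3 and 14.5 CPM in the het libraries at 30 dpf. It was higher in MZ fish without overlap at 5 dpf (log2 fold change 1.38, SE 0.20, edgeR adjusted p = 1.10e-04), and the groups overlapped later. Among the membrane protein genes, tm4sf4 had 258, 294 and 321 CPM in the MZ libraries, against 147, 237 and 129 CPM in the het libraries at 5 dpf and was higher in MZ fish (log2 fold change 0.85, SE 0.17, edgeR adjusted p = 0.00126). At 15 and 30 dpf tm4sf4 averaged 709 ± 189 CPM in MZ fish and 527 ± 71.1 CPM in het fish, and 435 ± 89.7 CPM in MZ fish and 511 ± 60.0 CPM in het fish, in that order of age (SD, n = 3 each). Villin, the actin bundler of microvilli encoded by vil1, had 191, 227 and 229 CPM in the MZ libraries, against 122, 241 and 136 CPM in the het libraries at 5 dpf and was not called (log2 fold change 0.45, edgeR adjusted p = 0.0647). Its het library 2, at 5 dpf the highest of the 6, was above every MZ library. At 30 dpf vil1 had 377, 255 and 368 CPM in the MZ libraries, against 463, 472 and 382 CPM in the het libraries, with MZ fish below and no call. The other membrane gene, tm4sf5, was not called at any age.

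Most digestion genes changed with age in both genotypes. Between 5 and 15 dpf, 41 of 45 members were called in MZ fish, 39 higher and 2 lower at 15 dpf, where 57.0% of all genes were called, 27.7% higher and 29.3% lower. In het fish 36 of 45 were called, 35 higher and 1 lower, where 39.7% of all genes were called, 19.7% higher and 20.0% lower. The genotype comparisons and the age comparisons share libraries, so they are set side by side and not tested against each other. The median log2 fold change of 15 over 5 dpf was 0.93 in MZ fish and 1.26 in het fish over pancreatic members, and 1.08 in MZ fish and 1.26 in het fish over intestinal members.

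The carboxypeptidase gene cpa1 had the largest pancreatic rise, 3.59 (SE 0.13) in MZ fish and 3.99 (SE 0.16) in het fish. Its libraries had 925, 1037 and 1239 CPM in MZ fish at 15 dpf, against 79.9, 90.1 and 90.1 CPM in MZ fish at 5 dpf. In het fish they had 786, 1069 and 983 CPM at 15 dpf, against 56.3, 50.7 and 72.2 CPM at 5 dpf. Its part of the pancreatic sum was 0.313% ± 0.0284 at 5 dpf, 1.91% ± 0.0411 at 15 dpf and 2.34% ± 0.0617 at 30 dpf in MZ fish, and 0.312% ± 0.0284, 1.93% ± 0.127 and 2.03% ± 0.0788 at these ages in het fish (SD, n = 3 each). At 5 dpf the genotypes thus differed in the level of cpa1 but hardly in its share of the pancreatic sum, while age changed both. The share of try, by comparison, stayed between 16.6% and 17.4% in every group mean.

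Among intestinal members the chitinase gene chia.3 had the largest rise in both genotypes. It rose by 3.77 (SE 0.15) in MZ fish and 4.52 (SE 0.19) in het fish between 5 and 15 dpf, and rose again by 30 dpf, by 1.01 (SE 0.17) in MZ fish and 1.25 (SE 0.13) in het fish. Its levels were 312, 452 and 322 CPM in the MZ libraries, against 286, 221 and 276 CPM in the het libraries at 15 dpf and 847, 615 and 632 CPM in the MZ libraries, against 548, 734 and 574 CPM in the het libraries at 30 dpf. The gene chia.4 had 0.0526, 0.165 and 0.199 CPM in the MZ libraries, against 0.324, 0.591 and 0.189 CPM in the het libraries at 5 dpf and 0.231, 0.75 and 1.39 CPM in the MZ libraries, against 1.32, 0.55 and 0.738 CPM in the het libraries at 15 dpf, near the limit of detection. At 30 dpf it had 8.05, 15.8 and 2.52 CPM in the MZ libraries, against 9.65, 5.93 and 3.61 CPM in the het libraries, so this gene was hardly seen before 30 dpf. It passed the filter of the fits of 30 over 15 dpf through its 30 dpf libraries. Its direction there was therefore set by the filter, and its calls as higher add no support. Rises of more than 2 on the log2 scale in both genotypes from 5 to 15 dpf were also called for mep1b, 2.59 in MZ fish and 3.84 in het fish, and for chia.1, 2.64 in MZ fish and 2.92 in het fish. The gene slc5a1 rose by 1.82 in MZ fish and 2.57 in het fish, and cel.1 by 1.34 in MZ fish and 2.23 in het fish. Each of these 4 had a higher value at 5 dpf in MZ fish, which lowers the MZ rise by construction.

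Not every member rose. The gene dpp4 fell between 5 and 15 dpf, with a log2 fold change of -0.99 (SE 0.39) in MZ fish and -0.92 (SE 0.32) in het fish. The MZ call was lost in 4 of the 6 fits that left out a library and in DESeq2, the het call was lost in 3 of the 6, and both were lost with 1 fit over all libraries, while the log2 fold change without a library ran from -1.39 to -0.61 in MZ fish and from -1.19 to -0.36 in het fish. The isomerase gene pdia2 fell in MZ fish (-0.47 (SE 0.11)) and was not called in het fish (0.13 (SE 0.14)). In both genotypes alpi.1, cel.2, ptf1a and cubn were not called between these ages. In het fish fabp6, at -0.09, slc10a2, at 0.05, amn, at 0.32, and mogat2, at 0.48, were not called either, and in MZ fish these 4 were called higher, at 0.76 for fabp6, 1.02 for slc10a2, 0.83 for amn and 0.84 for mogat2.

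**Figure D4:**
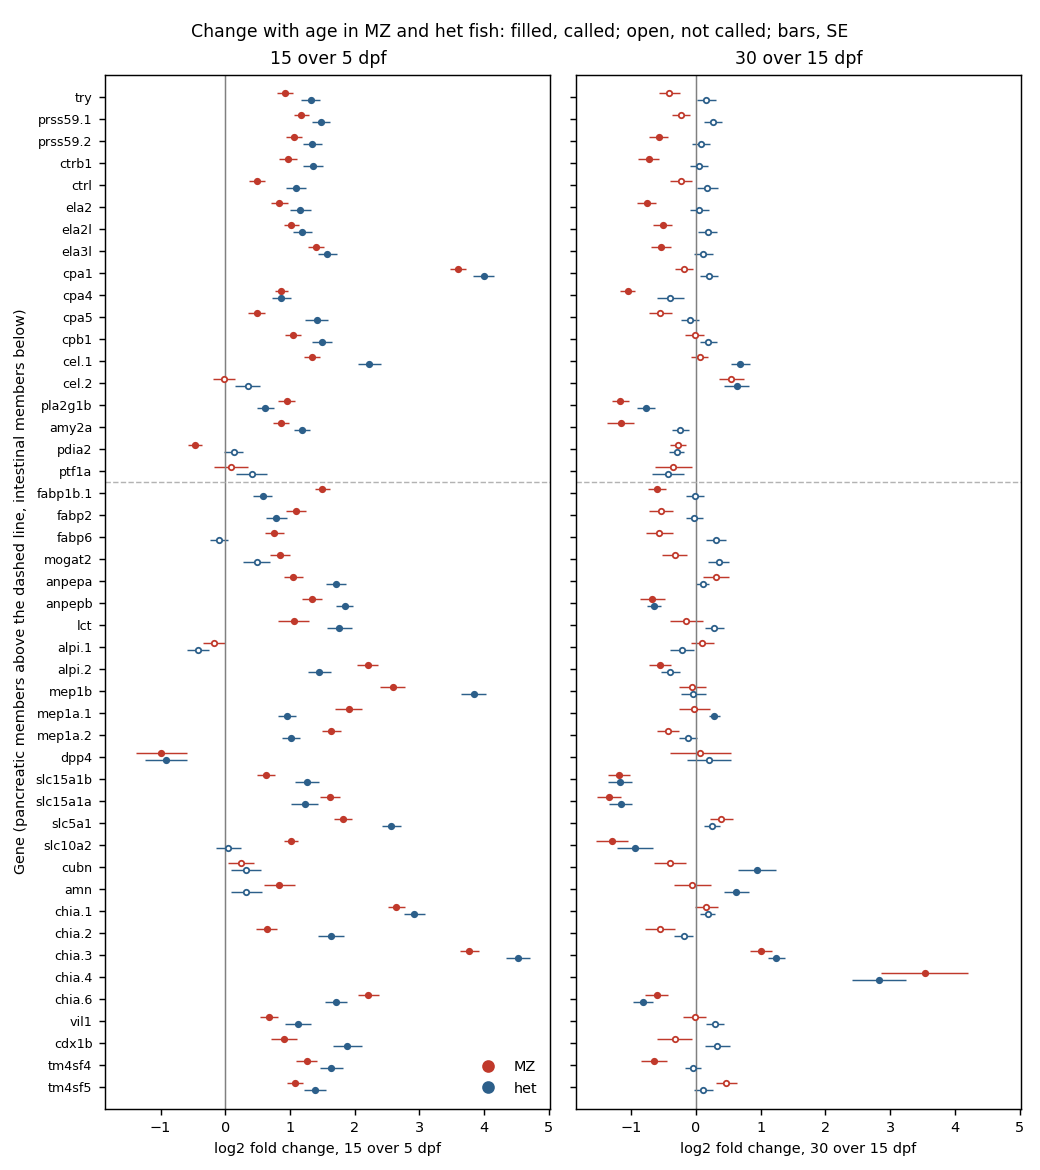
Log2 fold change of 15 over 5 dpf (left) and 30 over 15 dpf (right) for every tested member, MZ above het in each row; filled points were called, open points were not, and bars are the SE. Most members rose between 5 and 15 dpf in both genotypes, with the highest values for chia.3 and cpa1.

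Fewer members were called between 15 and 30 dpf. In MZ fish 18 of 46 members were called, 2 higher and 16 lower at 30 dpf, where 19.3% of all genes were called, 10.2% higher and 9.05% lower. In het fish 13 of 46 were called, 7 higher and 6 lower, where 21.5% of all genes were called, 10.6% higher and 10.9% lower. The higher genes of both genotypes included chia.4, which passed the filter through its 30 dpf libraries. The MZ count was 10 without MZ library 2 or MZ library 3 of 15 dpf, where 2431 of 20091 and 2479 of 20138 of all genes were called. Falls called in both genotypes included both peptide carrier genes, slc15a1a (-1.34 in MZ fish and -1.16 in het fish) and slc15a1b (-1.19 and -1.18 in MZ and het fish). The bile acid carrier gene slc10a2 fell too, with a log2 fold change of -1.29 in MZ fish and -0.94 in het fish, as did pla2g1b, with -1.17 in MZ fish and -0.77 in het fish.

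Pancreatic members accounted for 8 of the 16 falls in MZ fish and for 1 of the 6 in het fish, and whether these counts differ was not tested beyond the genotype by age tests below. In MZ fish amy2a, cpa4 and ela2 fell, with log2 fold changes of -1.16 (SE 0.21) for amy2a, -1.05 (SE 0.12) for cpa4 and -0.76 (SE 0.15) for ela2. In het fish these 3 genes, in that order, had -0.24 (SE 0.13), -0.39 (SE 0.21) and 0.05 (SE 0.15), without a call. Rises in het fish were called for both bile salt-activated lipase genes, cel.1 at 0.69 (SE 0.15) and cel.2 at 0.63 (SE 0.20), which in MZ fish had 0.06 (SE 0.13) and 0.55 (SE 0.19) without a call. The receptor genes cubn and amn rose in het fish as well, at 0.95 and 0.62, and were not called in MZ fish, at -0.40 and -0.05. The het calls of slc10a2, cel.2, cubn and amn were each lost in 4 or 5 of the 6 fits that left out a library.

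Whether the genotype difference itself changed with age was tested over all 18 libraries. The interaction test called 22 of 46 members, 13 of 18 pancreatic and 9 of 28 intestinal, where 33.3% of all 21191 genes were called. The difference between MZ and het fish at 30 dpf minus that at 5 dpf was called for 23 members, all of them negative, where 35.0% of all genes were called, 18.6% positive and 16.5% negative. Among pancreatic members 15 of 18 were called, and all 18 were below 0, with a median of -0.86. Among intestinal members 8 of 28 were called, with a median of -0.28, against 0.06 over all genes. A negative value here means that MZ fish stood lower against het fish at 30 dpf than at 5 dpf.

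Every trypsin, chymotrypsin, elastase and carboxypeptidase gene measured was among these calls, 12 genes with values from -1.40 to -0.67. The lipase gene cel.1 had the smallest adjusted p, -1.54 (SE 0.25, edgeR adjusted p = 1.37e-04), followed by cpa5, -1.40 (SE 0.27, edgeR adjusted p = 6.36e-04). Pancreatic members not called were pla2g1b, cel.2 and ptf1a, at -0.08, -0.47 and -0.26. Intestinal calls were chia.2, chia.3, mep1b, cdx1b, tm4sf4, cubn, lct and vil1, with cdx1b the lowest at -1.66 (SE 0.38, edgeR adjusted p = 0.00226). The genes that had been lower in MZ fish at 5 dpf gave no call, with 0.56 for alpi.2, 0.63 for mep1a.1, 0.60 for slc10a2, 0.31 for fabp1b.1 and 0.19 for slc15a1a. The calls of cpa4, cpb1, lct, pdia2 and vil1 were each lost in 3 to 11 of the 18 fits that left out a library.

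Lists of neighbouring cell types moved with some of these results. Beside the pancreatic members at 5 dpf stands a list of endocrine pancreas genes, written for the hormone cells of the islets. In MZ fish 12 of its 15 tested genes were higher and 0 lower, against 21.1% and 19.6% of all genes. The summed CPM of the list ran from 371 to 426 in MZ libraries, against 262 to 334 in het libraries. Of this list, g6pcb was at 0 in every library of 4 of the 6 groups, MZ at 15 and 30 dpf and het at 5 and 30 dpf. The 4 of smallest adjusted p were the somatostatin gene sst1.1, at 1.49, pdx1, a transcription factor gene of the pancreas, at 1.34, isl1, at 0.73, and pcsk1, at 1.79. Which cells of the whole fish made these transcripts was not determined. Another list of acinar genes went the other way in its counts, with 2 of 11 higher and 6 lower, against the same shares of all genes, and a median of -0.31, while its summed CPM was higher in MZ fish, 2265 to 2527, against 1721 to 2263 in het fish. The lower gene of smallest adjusted p was zgc:92590, at -2.46 with a mean of 19.3 CPM in MZ fish and 111 CPM in het fish. Next came the zymogen granule gene cuzd1.1, at -1.64 with 4.61 CPM in MZ fish and 15.1 CPM in het fish. Among the lower genes were also bhlha15, a transcription factor gene of secretory cells, at -3.10, and sycn.1, at -2.28. Both were rare, bhlha15 with a mean of 0.197 CPM in MZ fish and 1.81 CPM in het fish, and sycn.1 with 0.314 CPM and 1.68 CPM. At these levels both passed the filter on low counts through the het libraries. Their direction was thus set by the filter, and their part in the 6 lower genes adds no support.

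Beside the pancreatic members at 30 dpf, liver genes had 0 of 20 higher and 4 lower in MZ fish, 13 at an unadjusted p under 0.05, where 3.30% of all genes were called and 22.3% had such a p, with a median of -0.49 and a summed CPM of 13546 to 14858 in MZ libraries, against 18151 to 20598 in het libraries. The 4 were the plasma protein genes ahsg1, at -0.69, fetub, at -0.63, f2, at -0.62, and vtna, at -0.60. Of these, vtna was also lower at 5 dpf, at -0.77. The list did not share that direction at 5 dpf, where 5 of 20 genes were higher and 2 lower, against 21.1% and 19.6% of all genes. Among the higher ones were c3a.1, at 0.87, serpina1l, at 0.77, and ttr, at 0.53. At 30 dpf, 660 of all genes were called with all libraries, against 2, 361 and 1092 without MZ library 1, 2 and 3 in turn. Leaving out het library 1, 2 and 3 in turn gave 89, 1 and 12. Whether calls of list genes held without a library is not given here. Endocrine pancreas genes at that age had 1 of 14 lower, pcsk1 at -0.98, and summed to 155 to 199 CPM in MZ libraries, against 199 to 276 CPM in het libraries. The part of these lists in the results on digestion genes was not tested.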

How the data were processed

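The authors deposited 1 table of raw read counts per gene name, with 18 count columns that each matched 1 library and 0 that matched none. Whole-body RNA was extracted in Trizol, passed over a clean-up column and made into SMARTer libraries, per the labels' protocols. The submitters' processing notes name cutadapt, STAR 2.5.4b, featureCounts 1.6.3, Subread and the build GRCz10. The annotation, the use of strand and the treatment of shared reads are not given in the sources used here. A length column in the same table served for CPM per kb.

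Counts were tested with edgeR 4.0.16 in R 4.3.3 (filterByExpr with minimum count 10, TMM factors, quasi-likelihood F test, Benjamini-Hochberg adjustment over all genes, threshold 0.05), on the libraries of the 2 groups compared. The SE is the absolute log2 fold change divided by the square root of F. Interaction and difference of differences used all 18 libraries. CPM used TMM factors over all libraries. Alternatives were DESeq2 1.42.0, RLE factors, TMM factors without the members, no filter, 1 fit over all libraries, a replicate block and leaving out each library.

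Members and lists were chosen with earlier results of these data known. Fold changes and tests are named for every member called in a genotype comparison, or for the 10 of smallest adjusted p in a direction with more. Levels are given for the 2 members of highest mean CPM in each role class and for ptf1a, cdx1b, slc15a1b, fabp2 and fabp6. Genes of other lists are named where called, at most 4 per list and age. Values of further members in the text were chosen after they were seen. On counts simulated for the 5 dpf comparison (19531 genes), edgeR recovered 100% of genes changed by 1 on the log2 scale and 45.5% of those changed by 0.5. At 30 dpf (19741 genes) the shares were 87.9% and 22.7%. Each simulation changed 68 genes by 2, 66 by 1 and 66 by 0.5. The changed genes were drawn from the more abundant ones alone, so the shares do not cover rare members such as ptf1a. In the data at 5 dpf, 8043 of 19779 genes were called, so the simulated shares cannot be carried over to that age. Sequences and promoter motifs were not analysed here.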

Additional observations from a re-analysis of the deposited data

Results flagged for a closer look

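For 23 members the genotype difference itself differed between the ages by the edgeR test over all 18 libraries. The value given is the log2 fold change of MZ over het at 30 dpf minus that at 5 dpf, and all 23 were negative. Among proteases and their helper it was -1.0 for try, -0.82 for prss59.1, -0.96 for prss59.2, -1.19 for ctrb1, -1.03 for ctrl, -1.16 for ela2, -0.89 for ela2l, -0.84 for ela3l and -0.60 for pdia2. Carboxypeptidase genes had -0.80 for cpa1, -0.68 for cpa4, -1.40 for cpa5 and -0.67 for cpb1. The lipase gene cel.1 had -1.54 and the amylase gene amy2a -1.25. In the intestine the values were -1.37 for chia.2, -1.01 for chia.3, -1.28 for mep1b, -1.16 for lct, -1.45 for cubn, -0.77 for vil1, -1.66 for cdx1b and -1.01 for tm4sf4. Adjusted p-values in edgeR ran from 1.37e-04 for cel.1 to 0.0498 for vil1. Of the members 50.0% were called, 83.3% of the pancreatic and 28.6% of the intestinal ones, against 35.0% of all genes. The intestinal share called was thus below that of all genes, of which 16.5% were called negative. These shares are no test of the list either, since earlier results of these data were known when it was chosen.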

How the results depend on the processing

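Counts of called members stayed within 1.5 times the reported value in 118 alternative fits and moved further in 12. At 15 dpf, where 1 member was called, the count was 4 with no filter, 7 in DESeq2 and 0 with 1 fit over all libraries, and it ran from 0 to 11 when a library was left out. Over all genes these alternatives called 543 of 25869, 5.09% and 278 of 21191, and from 2 to 922 genes when a library was left out. At 30 dpf, where 0 were called, it was 2 with no filter, 7 in DESeq2 and 4 with 1 fit over all libraries. Of all genes, 794 of 26280, 6.39% and 1770 of 21191 were called in these fits. In MZ fish between 15 and 30 dpf, where 18 were called, it ran from 10 to 21 when a library was left out. All genes called there ran from 2431 to 3370, against 3770 with all libraries. Of the pairs of a called member and an alternative fit, 2017 kept the call or had no adjusted p. In 168 pairs the call was lost, and in 0 the sign reversed. The cause was not tested. All 54 medians moved by less than the spread between replicates.

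Library numbers shared between groups gave no clear sign of pairing. Correlations of same-numbered deviations ran from -0.12 to 0.145, and in no comparison were all above 0.1. With 3 libraries per group, this check cannot exclude a shared clutch or preparation. With the replicate block, 32, 1 and 0 members were called at 5, 15 and 30 dpf, 41 and 16 in MZ fish and 37 and 16 in het fish for the earlier and later age step, and 22 each for the interaction and the difference of differences. All genes called with the block were 7825 of 19779, 76 of 19307 and 493 of 19980 at these ages. For the age steps they were 11455 of 19769 and 3173 of 19565 in MZ fish, and 7204 of 19650 and 4516 of 19911 in het fish. For the interaction and the difference of differences they were 6772 and 7162 of 21191. In simulated counts with few changed genes and n = 3, genotype differences of 0.5 on the log2 scale were often missed. This cannot be carried over to 5 dpf, where many more genes were called. Copies of a gene family that share reads cannot be told apart.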

Other observations

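Other lists of gut cell types were mixed at 5 dpf, where 21.1% of all genes were higher in MZ fish and 19.6% lower. In MZ fish 2 of 7 tested goblet cell genes were higher and 4 lower, at a median log2 fold change of -0.42. Mucin genes stood at both ends, muc5.3 at 3.88, with a mean of 8.67 CPM in MZ fish and 0.638 CPM in het fish, and muc5.2 at -1.18, with 20.3 CPM in MZ fish and 47.8 CPM in het fish. With so low a het level, muc5.3 passed the filter on low counts through the MZ libraries, so its direction adds no support. A list of genes of gut hormone cells had 5 of 14 higher and 0 lower, with a median of 0.44, among them the peptide YY gene pyya at 0.82. Which cells of the whole fish made these transcripts was not determined. A second list of enterocyte genes had 14 of 39 higher and 6 lower, with a median of 0.22. In it, the drug-metabolising gene cyp3a65 was at 1.97, with 595 CPM in MZ fish and 160.0 CPM in het fish, and the apolipoprotein B gene apoba at -1.42.

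The list counts at 5 dpf that follow also stand beside 21.1% of all genes higher and 19.6% lower. Lysosome-rich enterocyte genes had 2 of 13 higher and 4 lower at 5 dpf, with a median of -0.14. The uptake receptor gene lrp2a was at 1.42 and the lysosomal protease genes lgmn and ctsh were at -0.57 and -0.59. At 15 dpf, where 0.891% of all genes were called, 1 of the 13 was, ctsh at 0.73, with a median of 0.39 over the list. Bile acid genes had 4 of 11 higher and 2 lower at 5 dpf, with a median of 0.29, and at 30 dpf the liver bile salt pump gene abcb11b was lower, at -1.02. Liver genes had 5 of 20 higher and 2 lower at 5 dpf, and smooth muscle genes of the digestive tract 1 of 9 higher and 1 lower. At 30 dpf, 2 of 40 tested genes of the second enterocyte list were called, where 3.30% of all genes were. In that list 26 genes lay below 0. The apolipoprotein gene apoa1b was lower in MZ fish, at -0.68 (4836 ± 491 CPM, against 7883 ± 1092 CPM in het fish). The fatty acid binding gene fabp1b.2, a neighbour of fabp1b.1, was higher in MZ fish, at 1.79. It had 51.7 ± 23.1 CPM in MZ fish and 15.3 ± 9.99 CPM in het fish (SD, n = 3 each). At 15 dpf 2 of 39 tested genes of the second enterocyte list were called, where 0.891% of all genes were. They were the apolipoprotein gene apoa4a at 0.64 and the amino acid carrier gene slc6a19b at 0.52 (edgeR adjusted p = 0.0436 each). Over all genes, 172 were called at 15 dpf, against 3, 2 and 2 without MZ library 3, het library 1 or het library 2. Without MZ library 1 it was 922. Calls over all genes likewise moved at 30 dpf, as given above. Whether calls of list genes held in such fits is not given here. All of these are edgeR calls over all genes tested, with no test of a list.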
